A study of Brassica napus with 11 samples.

Results

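This section describes the 161 transcripts of the *Brassica napus* funiculus that were both abundant and even, that is, at 50 FPKM or more in each of 10 libraries and with the highest of the 10 values at most 3 times the lowest. FPKM counts the fragments of a transcript per kilobase of its length, scaled to the mapped reads of the library, so levels of different transcripts can be set side by side. The 161 members are 0.164% of the 97902 transcripts in the table and 50.9% of the 316 that reached 50 FPKM in all 10 libraries. The other 155 abundant transcripts, called uneven here, exceeded the 3-fold limit and serve as the comparison. Because the FPKM values themselves chose the members, levels and differences among the 10 libraries are given as a description and support no test of the members.

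The funiculus is the stalk that joins the developing seed to the mother plant, and its epidermis, cortex and vasculature were cut apart by laser microdissection from siliques of line DH4079 (cv. Topaz) at 7 days after pollination, the globular stage. There were 3 epidermis, 2 cortex, 3 vasculature and 3 whole funiculus (WF) libraries, all from the same line and age, and the labels give no treatment. Each library pooled dissected elements from several plants, and its RNA was amplified before sequencing, so that p-values measure the spread between such pools. In bulk tissue of this kind, fewer cells of a type and less RNA per cell cannot be told apart. The rule used every library but WF2, which the study set aside because it grouped apart from all others.

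All 10 tissue markers named by the study (among them the acyltransferase gene *PEL3* for the epidermis, *GASA6* for the cortex and the phloem regulator gene *APL* for the vasculature) had their highest mean in their own tissue, and 0 of them are members. These markers were picked by the study on the same libraries, so this is a description and no check of the labels. The summed vasculature markers were 0.578 to 3.99 FPKM in the epidermis, 16.7 and 28.9 FPKM in the cortex and 513 to 633 FPKM in the vasculature. The summed epidermis markers were 1922 to 3667 FPKM in the epidermis. They were 212 and 697 FPKM in the cortex and 1.12 to 16.6 FPKM in the vasculature. The summed cortex markers were 176 and 319 FPKM in the cortex. They were 14.4 to 38.2 FPKM in the epidermis and 7.31 to 8.78 FPKM in the vasculature. WF2 differed from the rest in 3 ways. Its FPKM values summed to 1834430 against 439770 to 564579 elsewhere. Its number of fragments (read from the steps between low values) was 0.186 of that in WF3 against 0.340 to 0.838 in the other libraries. Its summed markers were below those of WF1 and WF3 for all 3 tissues. The vasculature markers were 7.07 FPKM against 303 and 279 FPKM in WF1 and WF3. The epidermis markers were 46.7 FPKM against 433 and 396 FPKM, and the cortex markers 9.37 FPKM against 42.4 and 32.6 FPKM.

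Every living plant cell makes ribosomes, degrades proteins through ubiquitin and the proteasome, respires and maintains a cytoskeleton, and genes for these tasks are usually transcribed at high levels in many tissues. Such genes are called housekeeping genes, and the steadiest of them are used as references when the expression of other genes is measured. *Brassica napus* is an allotetraploid with an A and a C subgenome, so most of its genes have a near-identical copy on the other subgenome, and short reads from such copies can be shared between them. A level given for 1 member can therefore include reads of its homeolog.

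The members spanned a wide range of levels but most averaged under 200 FPKM. Their means over the 10 libraries ran from 64.3 to 18801 FPKM with a median of 111 FPKM, against a median of 180 FPKM for the uneven transcripts. Of the 161, 71 averaged under 100 FPKM, 65 averaged 100 to 200 FPKM, and 25 averaged 200 FPKM or more. The quotient of the highest to the lowest library had a median of 2.12 among members, with 5 members at up to 1.5, 58 between 1.5 and 2, 63 between 2 and 2.5, and 35 between 2.5 and 3. Among the uneven transcripts the median quotient was 4.65 and the highest was 73.5.

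**Figure D1:**
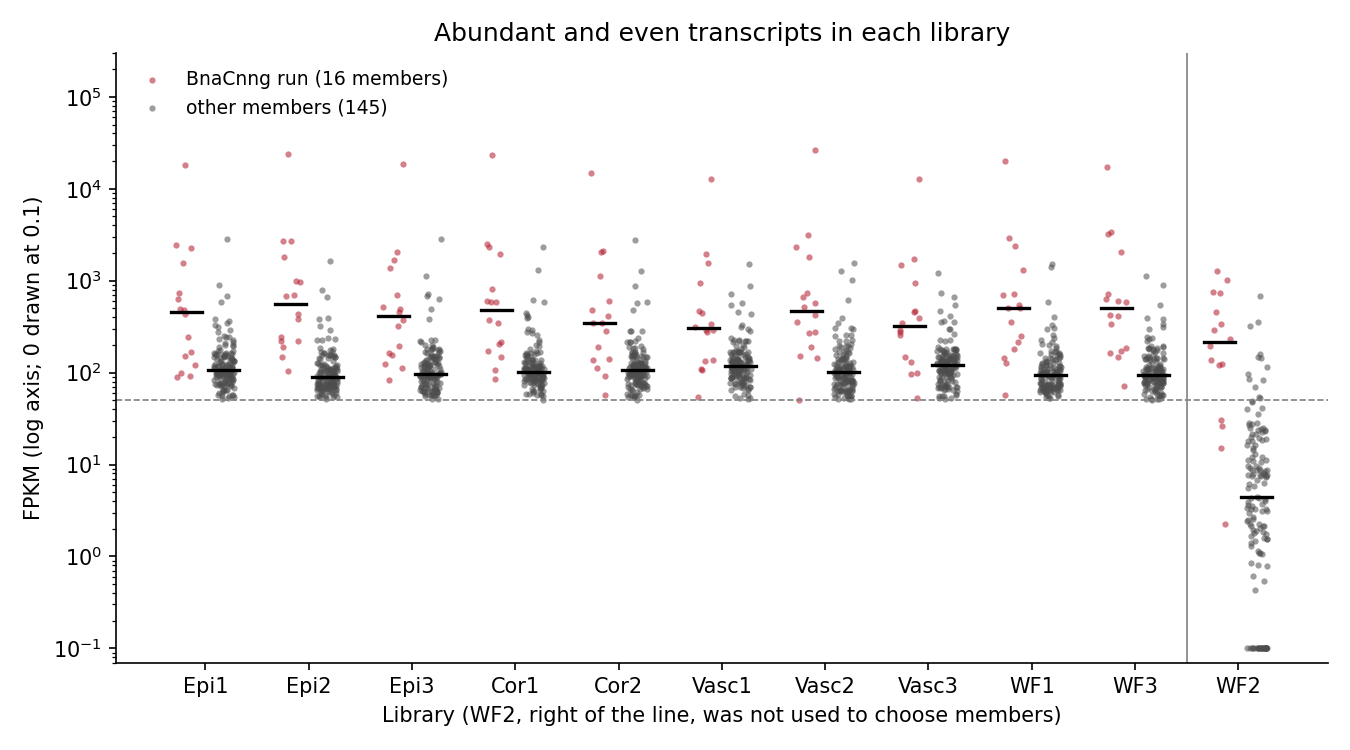
FPKM of each of the 161 members in each library on a log axis, with the 16 members of the BnaCnng run in red, the other 145 in grey and the median of each as a black bar; values of 0 are drawn at 0.1 FPKM. By construction all points in the 10 libraries left of the line sit at or above 50 FPKM, while in WF2 the other members had a median of 4.44 FPKM and the run a median of 214 FPKM.

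Of the 10 highest members, 7 came from 1 stretch of gene numbers. Gene models of this genome are numbered in order along each chromosome or set of unplaced scaffolds, and members at most 20 models apart were joined into runs after their identifiers had been seen. There were 9 runs holding 33 members, 7 of them pairs. The longest ran from BnaCnng12360D to BnaCnng13130D on unplaced sequence of the C subgenome and held 16 members, 9.94% of all members, whereas its number range holds 76 transcripts, 0.0776% of the table. Members set the ends of this range, and 52.2% of the table is at 0 in the 10 libraries. These shares therefore do not compare like with like. Of the 316 transcripts at 50 FPKM or more in all 10 libraries, 17 lay in the range. Of those 76, 30 were listed at 0 in all 11 libraries and 17 reached 50 FPKM in all 10, so that 1 of the abundant transcripts in the range, BnaCnng13070D, was too uneven to be a member. No run member carried a description or a RefSeq record in the sources used here, so their products are not named.

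BnaCnng12640D was the most abundant member. It stood at 18007, 23624 and 18488 FPKM in epidermis 1 to 3, at 23341 and 14814 FPKM in cortex 1 and 2, at 12858, 26505 and 12799 FPKM in vasculature 1 to 3, and at 20265 and 17314 FPKM in WF1 and WF3. The 4 groups overlapped, and its lowest and its highest value were both from the vasculature. It made up 65.0% of the summed mean level of the run.

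BnaCnng12520D was next, at 2256, 2733 and 1689 FPKM in the epidermis, 2320 and 2037 FPKM in the cortex, 1931, 3123 and 1709 FPKM in the vasculature, and 2917 and 3226 FPKM in WF1 and WF3. BnaCnng12800D was at 2471, 2722 and 2027 FPKM in the epidermis, 2534 and 2119 FPKM in the cortex, 1568, 2341 and 1471 FPKM in the vasculature, and 2373 and 3376 FPKM in WF1 and WF3. In both, the ranges of the 3 tissues overlapped. BnaCnng12820D (mean 1494 FPKM), BnaCnng12780D (652 FPKM), BnaCnng13090D (606 FPKM) and BnaCnng12510D (541 FPKM) were also among the 10 highest members, which gave the run 7 of these 10 places.

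The remaining run members reached down to the floor. BnaCnng13130D averaged 498 FPKM, BnaCnng13110D 382 FPKM, BnaCnng13120D 320 FPKM and BnaCnng12690D 248 FPKM. BnaCnng12850D averaged 190 FPKM, BnaCnng12970D 147 FPKM, BnaCnng12500D 139 FPKM, BnaCnng12720D 128 FPKM and BnaCnng12360D 70.6 FPKM. Together 11 of the 16 averaged 200 FPKM or more, against 14 of the other 145 members. The run held 3.60% to 8.10% of all FPKM in each of the 10 libraries and the other members 3.79% to 4.78%, against 0.312% and 0.189% in WF2.

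Run members moved together between replicates. In epidermis 2, all 16 were at their highest of the 3 epidermis libraries, in cortex 1 14 of 16 were the higher of the cortex pair, and in vasculature 2 14 of 16 were at their highest of the 3 vasculature libraries. For 12 of the 16 this held in all 3 of these libraries, against 5 of the other 145 members and 9 of the 155 uneven transcripts. The 3 libraries were not fixed before the values were seen, so these counts are a description and no test of the run. Of the other 145 members, 68 were lowest and 17 highest of their tissue in epidermis 2, and 84 lowest and 45 highest in vasculature 2, whereas cortex 1 was the lower of its pair for 72 and the higher for 73. Lowest of their tissue in all 3 libraries were 0 run members, 33 of the other 145 and 43 of the 155 uneven transcripts. Non-members from the same number range with a mean of at least 5 FPKM resembled the run in this, with 7 of 15 at their highest in all 3.

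The size of these shifts was moderate. Relative to each member's own mean over the 10 libraries on the log2 scale, the median shift of the run was 0.36 in epidermis 2, 0.22 in cortex 1 and 0.23 in vasculature 2, while in vasculature 1 and 3 it was −0.42 and −0.44. For the other members the median shift was −0.19 in epidermis 2, 0.03 in cortex 1 and −0.07 in vasculature 2, with 0.20 and 0.15 in vasculature 1 and 3. Epidermis 2, cortex 1 and vasculature 2 also had the lowest FPKM sum of their tissue (471992, 455419 and 470716). The same libraries had the fewest fragments of their tissue, at 0.340, 0.375 and 0.481 of the number in WF3. The part of either in the pattern was not tested. After each library was divided by a median-of-ratios factor, a choice made after the pattern had been seen, all 16 run members were at their highest in the 3 libraries and 16 of the 145 others at their lowest.

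**Figure D2:**
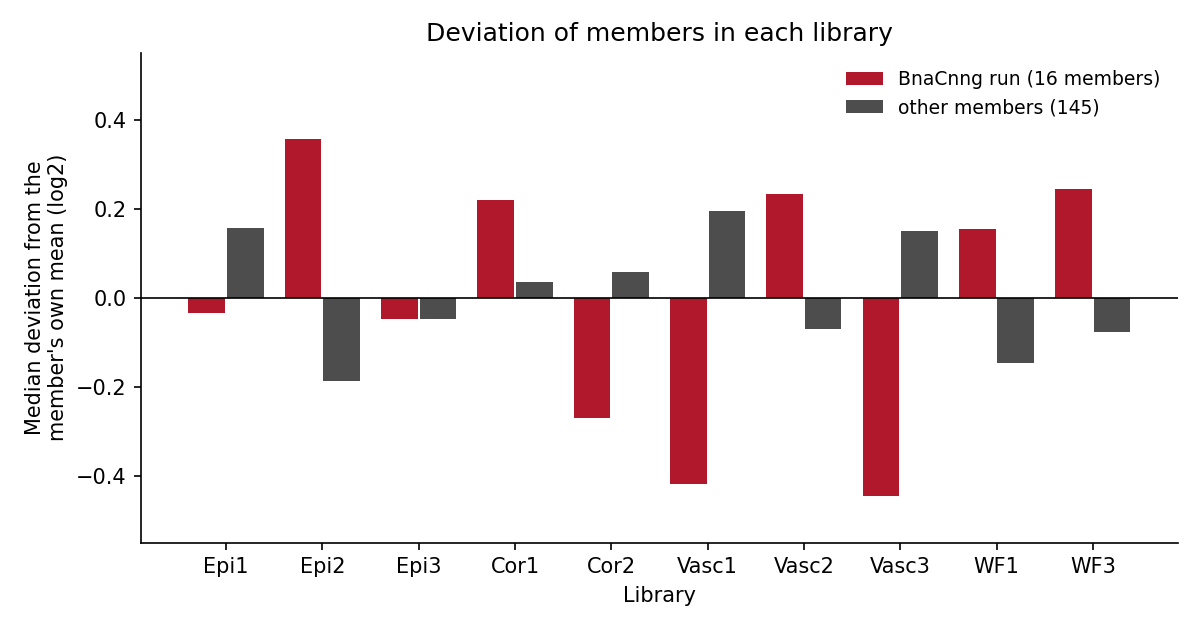
Median deviation of members from their own mean over the 10 libraries (log2 FPKM), for the 16 run members in red and the other 145 in grey. The run is at 0.36 in Epi2, 0.22 in Cor1 and 0.23 in Vasc2 and at −0.42 and −0.44 in Vasc1 and Vasc3, where the other members are at 0.20 and 0.15.

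Outside the run, BnaC01g35230D was the most abundant member. It was at 2857, 1632 and 2821 FPKM in the epidermis, 2348 and 2781 FPKM in the cortex, 1521, 1550 and 1214 FPKM in the vasculature, and 1521 and 1131 FPKM in WF1 and WF3, so that every epidermis and cortex library lay above every vasculature and whole funiculus library. BnaC04g10080D averaged 941 ± 163 FPKM in the epidermis (SD, n = 3), 1287 ± 17.1 FPKM in the cortex (n = 2) and 841 ± 379 FPKM in the vasculature (n = 3). Its vasculature libraries spread from 542 to 1268 FPKM and covered every epidermis value. BnaC03g39720D averaged 420 ± 64.3 FPKM in the epidermis, 740 ± 186 FPKM in the cortex and 874 ± 134 FPKM in the vasculature, with every epidermis library below every vasculature library.

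On the log2 scale the median SD within tissues was 0.29 among members and 0.53 among the uneven transcripts, and the median SD of the 3 tissue means was 0.19 among members and 0.74 among the uneven transcripts. Each tissue mean averages 2 or 3 libraries and so varies less than a single library does, and the rule used these values, so the 2 kinds of SD are not set against each other here. The geometric means of the highest and lowest tissue were a median of 1.29 times apart, over 1.5 times in 44 members and over 2 times in 6. The tissue with the highest geometric mean was the vasculature in 74 members, the cortex in 46 and the epidermis in 41, while among the 16 run members it was the vasculature in 2, the cortex in 3 and the epidermis in 11.

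The 5 members with the smallest quotient were all of moderate level. BnaC09g43600D, with a quotient of 1.39, was at 55.8, 65.6 and 57.7 FPKM in the epidermis, 58.6 and 57.2 FPKM in the cortex, 75.4, 62.9 and 73.9 FPKM in the vasculature, and 58.4 and 77.4 FPKM in WF1 and WF3. BnaC03g23520D (quotient 1.43) averaged 98.8 ± 12.2 FPKM in the epidermis, 98.3 ± 3.40 FPKM in the cortex and 109 ± 14.1 FPKM in the vasculature. BnaC05g51080D (1.46) averaged 105 ± 6.97, 107 ± 6.38 and 88.3 ± 11.2 FPKM in the same tissues. The level of each of these 3 overlapped between epidermis and vasculature libraries.

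BnaA03g12310D, also at a quotient of 1.46, averaged 64.0 ± 4.19 FPKM in the epidermis, 74.1 ± 1.08 FPKM in the cortex and 61.8 ± 9.45 FPKM in the vasculature, and its cortex pair lay above every other library. BnaC04g47680D (1.48) was at 98.5, 110 and 120 FPKM in the epidermis, 119 and 134 FPKM in the cortex, 138, 146 and 131 FPKM in the vasculature, and 128 and 122 FPKM in WF1 and WF3. Each of its epidermis libraries was below each of its vasculature libraries in spite of the small quotient. No description of these 5 transcripts was held.

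**Figure D3:**
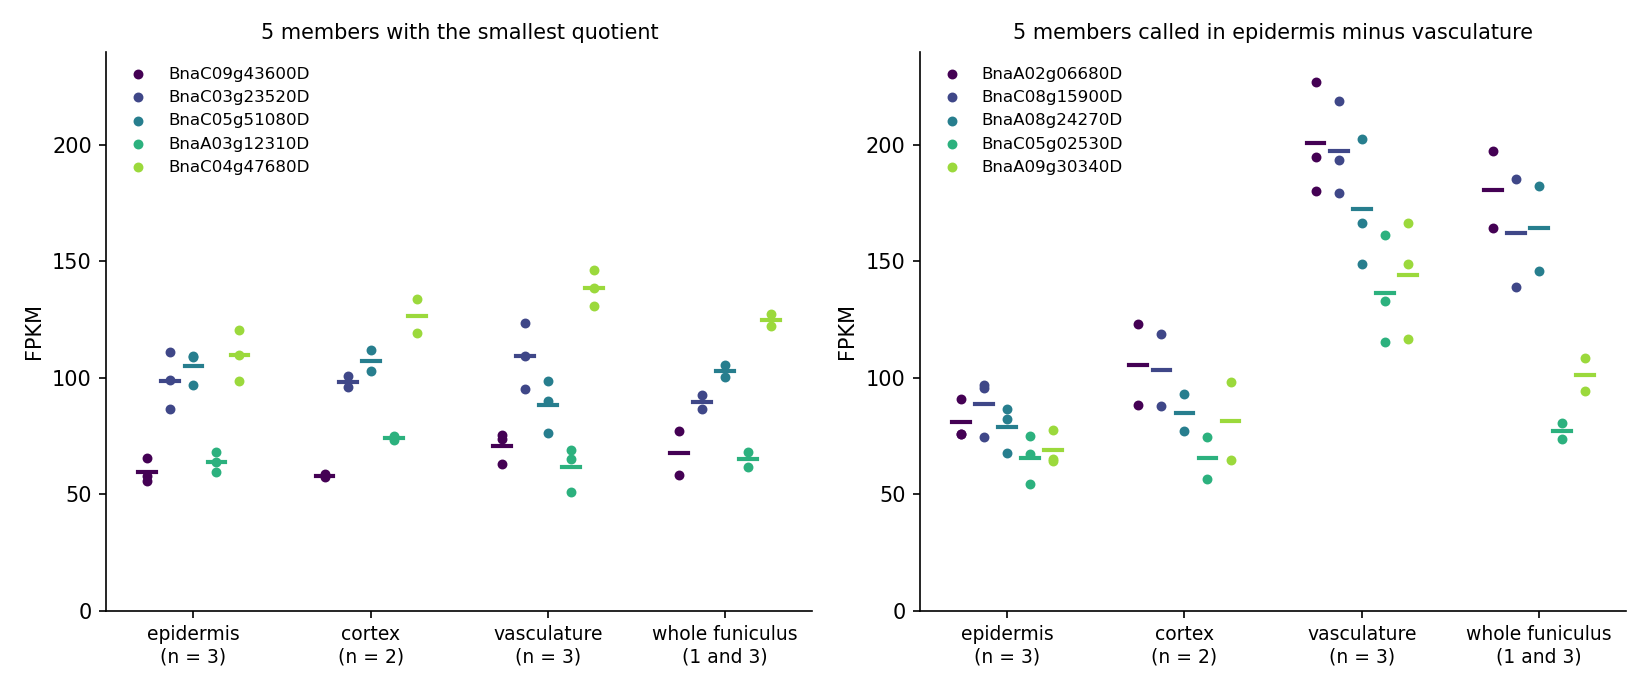
FPKM of the 5 members with the smallest quotient (left) and of the 5 members called in epidermis minus vasculature (right), with a point for each library and a bar for the mean of the epidermis (n = 3), cortex (n = 2), vasculature (n = 3) and whole funiculus (WF1 and WF3). The left-hand members stay between 51.1 and 146 FPKM, and in each right-hand member every epidermis library is below every vasculature library.

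Descriptions were held for 1750 of the 1999 transcripts in the section of the study's annotation used here, all from A01 and the start of A02, and 5 members were among them. Of the 12 abundant transcripts in this section 6 were members, of which BnaA01g03330D had no description. Both described ribosomal protein transcripts that reached 50 FPKM in all 10 libraries were members. Ribosomal protein L14 (BnaA01g16130D), a component of the large ribosomal subunit, was at 93.7, 112 and 99.5 FPKM in the epidermis, 93.7 and 102 FPKM in the cortex, 116, 91.8 and 111 FPKM in the vasculature, and 77.1 and 75.3 FPKM in WF1 and WF3. Its tissue libraries overlapped throughout and both whole funiculus libraries were below all 8 of them.

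The other ribosomal member, a ribosomal protein of the S10p/S20e family of the small subunit (BnaA01g25960D), was less even. It was at 74.0, 51.8 and 96.7 FPKM in the epidermis, 107 and 114 FPKM in the cortex, 132, 80.9 and 143 FPKM in the vasculature, and 72.4 and 74.0 FPKM in WF1 and WF3. Epidermis 2 and vasculature 2 were the lowest libraries of their tissues, and epidermis and vasculature overlapped.

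Ubiquitin-conjugating enzyme 11 (BnaA01g32320D), an E2 enzyme that passes ubiquitin on to the proteins to be tagged, was at 83.1, 72.6 and 77.9 FPKM in the epidermis, 106 and 90.7 FPKM in the cortex, 135, 166 and 132 FPKM in the vasculature, and 101 and 137 FPKM in WF1 and WF3. The 3 tissues did not overlap, with the epidermis lowest and the vasculature highest. G-box regulating factor 6 (BnaA02g00540D), a 14-3-3 protein, of a family that binds phosphorylated partner proteins, went the other way. It was at 146, 104 and 94.9 FPKM in the epidermis, 132 and 114 FPKM in the cortex, 91.0, 81.4 and 73.8 FPKM in the vasculature, and 70.0 and 78.2 FPKM in WF1 and WF3, and each vasculature library was below each epidermis and cortex library.

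A FRIGIDA-like protein (BnaA01g24690D), a relative of the flowering-time regulator FRIGIDA of *Arabidopsis thaliana*, was at 56.9, 79.7 and 55.5 FPKM in the epidermis, 69.5 and 64.3 FPKM in the cortex, 89.1, 113 and 74.8 FPKM in the vasculature, and 73.2 and 79.2 FPKM in WF1 and WF3. Epidermis and vasculature overlapped. BnaA01g03330D, without a description, was at 57.4, 86.3 and 130 FPKM in the epidermis and 63.1 and 152 FPKM in the cortex, and at 65.3, 76.5 and 52.7 FPKM in the vasculature, so that its epidermis and its cortex replicates lay far apart.

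**Figure D4:**
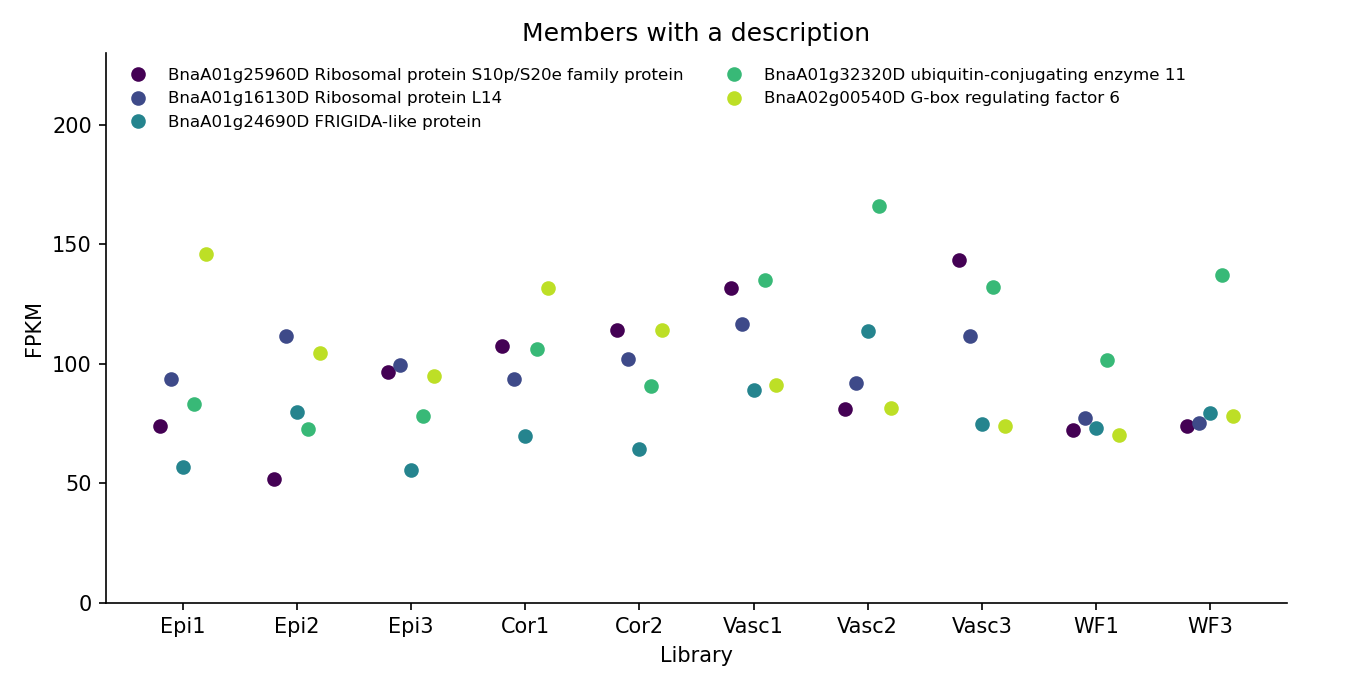
FPKM of the 5 members with a description in each of the 10 libraries, with 1 point per library and points of a library set slightly apart. Ribosomal protein L14 (BnaA01g16130D) stays between 75.3 and 116 FPKM, ubiquitin-conjugating enzyme 11 (BnaA01g32320D) is highest in the vasculature, at 132 to 166 FPKM, and G-box regulating factor 6 (BnaA02g00540D) lowest there among the tissues, at 73.8 to 91.0 FPKM.

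Other housekeeping transcripts of the same section missed the rule. Among abundant ones, the gene for translationally controlled tumor protein (BnaA01g27710D) had a quotient of 3.43, the ATP synthase subunit alpha (BnaA01g34170D), part of the enzyme that makes ATP in respiration, 3.13, and profilin 1 (BnaA01g34880D), which binds actin monomers, 3.95. Profilin 1 was at 104 to 142 FPKM in the epidermis and at 361 to 411 FPKM in the vasculature. Actin 7 (BnaA02g00190D), whose gene is a common reference in plants, was even (quotient 2.12) but fell short of the floor, with 34.9 to 74.1 FPKM, and ribosomal protein S4 (BnaA02g02540D) likewise, with 42.0 to 119 FPKM.

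Between tissues, limma (Benjamini-Hochberg adjustment over all 45300 transcripts tested, adjusted p under 0.05) called 5 of the 161 members in epidermis minus vasculature, against 15.6% of all transcripts. At an unadjusted p under 0.05 were 18 of the 161 members, against 12615 of all 45300 transcripts. All 5 called members were lower in the epidermis, as were 9.18% of all transcripts. The even rule bounds these differences from above, so the low counts are a consequence of the choice and nothing is read from them. The median difference was −0.07 among members and −0.06 over all transcripts on the log2(FPKM + 1) scale used for all fits, members ran from −1.30 to 0.90, and 115 of them were within 0.5 of 0. In cortex minus vasculature limma called 0 members, against 9.97% of all transcripts, with medians of −0.04 and −0.05. At an unadjusted p under 0.05 were 6 members, against 10494 of all 45300 transcripts. In epidermis minus cortex limma called 0 members, against 0.194% of all transcripts, with medians of −0.07 and −0.01. At an unadjusted p under 0.05 were 5 members, against 4756 of all 45300 transcripts.

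The 5 called members had quotients of 2.60 to 3.00, in the upper part of the range the limit allows. BnaA02g06680D was at 75.8, 76.1 and 91.0 FPKM in the epidermis against 195, 227 and 180 FPKM in the vasculature, with 88.2 and 123 FPKM in the cortex and 164 and 197 FPKM in WF1 and WF3. Its log2 difference was −1.30 ± 0.28 (SE; limma adjusted p = 0.0129). BnaC08g15900D was at 74.6, 96.8 and 95.4 FPKM in the epidermis against 219, 193 and 179 FPKM in the vasculature (−1.14 ± 0.28; adjusted p = 0.0233). BnaA08g24270D was at 82.4, 86.4 and 67.7 FPKM in the epidermis against 166, 202 and 149 FPKM in the vasculature (−1.12 ± 0.27; adjusted p = 0.0243). In these 3, the whole funiculus libraries lay above every epidermis and cortex library.

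BnaC05g02530D was at 54.4, 74.9 and 67.4 FPKM in the epidermis against 161, 115 and 133 FPKM in the vasculature (−1.04 ± 0.28; adjusted p = 0.0378), and its whole funiculus libraries, at 73.8 and 80.8 FPKM, lay nearer the epidermis. BnaA09g30340D was at 77.8, 64.2 and 65.1 FPKM in the epidermis against 167, 117 and 149 FPKM in the vasculature (−1.04 ± 0.29; adjusted p = 0.0431). The cortex of all 5 was −0.83 to −1.05 from the vasculature without being called (adjusted p of 0.0764 to 0.164), and −0.37 to 0.00 separated epidermis and cortex (adjusted p of 0.747 to 1). The count of 5 became 0 without epidermis 2, 1 without epidermis 1, vasculature 1 or vasculature 3, 2 without epidermis 3, and 8 without cortex 1 or cortex 2. With no filter on low values BnaC05g02530D and BnaA09g30340D lost their call (limma adjusted p = 0.0567 and 0.0680). Ubiquitin-conjugating enzyme 11 (BnaA01g32320D) missed the threshold at −0.88 ± 0.26 (adjusted p = 0.0520).

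Members are 0.164% of the table and 5 of the 1750 described transcripts, so a count of 0 in a keyword group is not read as a result. Of 35 ribosomal protein transcripts, 2 were members, and 1 was called higher and 0 lower in epidermis minus vasculature, where 6.42% of all transcripts were called higher and 9.18% lower. Of 32 ubiquitin and proteasome transcripts 1 was a member, and of the 31 tested 1 was called higher and 2 lower in the same contrast. All other groups held 0 members: translation factors (8 transcripts), cytoskeleton (8), histones (7), mitochondrial energy (26), proton pumps (5), glycolysis (12), photosynthesis (11), RNA binding and splicing (41), protein folding (31), redox and metal binding (15), membrane trafficking (31), lipid transfer and cell wall (37), calcium and signalling (142), hormone and stress related (22) and water channels (0 described). Of these groups, profilin 1 and the ATP synthase subunit alpha alone reached 50 FPKM in all 10 libraries. Of the 34 lipid transfer and cell wall transcripts tested, 12 were called higher and 4 lower in epidermis minus vasculature, and of the 141 calcium and signalling transcripts tested, 10 higher and 13 lower. Groups follow keywords, so they can overlap and hold genes of other functions. Phosphoglycerate kinase 1 (BnaA01g30320D) was counted under glycolysis and also under calcium and signalling. Most members lie outside this section, so these counts say little of the 161.

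The rule held WF1 and WF3 within 3 times of every tissue library, so their closeness to the tissues follows from the choice of members. Of the 161 members, 74 had a mean of WF1 and WF3 within the range of the 3 tissue means, 61 below it and 26 above it, and in 144 that mean was within 1.5 times the mean of the tissue means. Both whole funiculus libraries were below all 8 tissue libraries in 7 members and above them in 2. These positions were not counted over all transcripts, so they are a description and nothing is read from them. In the contrast of the mean of the tissues minus the whole funiculus, limma called 0 members, against 0.365% of 46004 transcripts. The medians were 0.07 among members and 0.01 over all. At an unadjusted p under 0.05 were 3 members, against 2995 of the 46004 transcripts. The rule bounds these differences too, so nothing is read from these counts.

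WF2 is the only library that the rule did not use. Of the 161, 25 (15.5%) reached 50 FPKM in WF2, against 23 of the 155 uneven transcripts (14.8%) and 99 of all 715 transcripts at 50 FPKM or more in both WF1 and WF3 (13.8%). The median level in WF2 relative to the mean of WF1 and WF3 was 0.0538 among members, 0.0401 among uneven transcripts and 0.0428 among the 715. With 1 library there is no test, and these 3 values are close to each other. Among members the median was 0.202 after each library had been divided by a median-of-ratios factor, which was 0.249 for WF2. In WF2, 74 members were under 5 FPKM, 25 of them listed at 0, while 150 members (93.2%) were lower and 7 higher than in both WF1 and WF3. Lower than in both were also 148 of the 155 uneven transcripts and 74.6% of the 16213 transcripts averaging 5 FPKM or more over WF1 and WF3.

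The run and the other members parted in WF2. Of the run members, 12 of 16 (75.0%) reached 50 FPKM there, against 13 of the other 145 (8.97%). The run had a median mean of 440 FPKM over the 10 libraries, against 100 FPKM for the others. The shares at a fixed 50 FPKM therefore do not compare like with like. The median level in WF2 relative to WF1 and WF3 was 0.229 for the run and 0.0458 for the others. Even so the run was not intact, since BnaCnng12640D stood at 292 FPKM in WF2 against 20265 and 17314 FPKM in WF1 and WF3, a relative level of 0.0155. BnaCnng12820D was at 1006 FPKM in WF2 against 1323 and 2056 FPKM, and BnaCnng12780D at 756 FPKM against 712 and 602 FPKM. Of the 15 non-members in the same number range with a mean of at least 5 FPKM, 10 reached 50 FPKM in WF2, at a median relative level of 3.83. WF2 also differed in fragments and FPKM sum, as given above, and their part in these levels was not tested.

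Some members outside the run also held their level. BnaA06g10600D was at 96.8 FPKM in WF2 against 75.3 and 89.1 FPKM in WF1 and WF3, BnaC04g22660D at 82.9 FPKM against 105 and 117 FPKM, and BnaA01g03330D at 54.9 FPKM against 55.8 and 52.1 FPKM. Of the 25 members at 50 FPKM or more in WF2, 17 carried BnaCnng or BnaUnng identifiers, which mark unplaced sequence, and 7 lay on numbered chromosomes. Ribosomal protein L14 (BnaA01g16130D) just missed, at 47.6 FPKM in WF2 against 77.1 and 75.3 FPKM, whereas the S10p/S20e member (BnaA01g25960D) was at 3.93 FPKM against 72.4 and 74.0 FPKM. Ubiquitin-conjugating enzyme 11 (BnaA01g32320D) was at 3.61 FPKM in WF2, G-box regulating factor 6 (BnaA02g00540D) at 11.9 FPKM and the FRIGIDA-like member (BnaA01g24690D) at 0.430 FPKM.

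At the other end, the members listed at 0 in WF2, ordered by their mean in WF1 and WF3, were led by BnaC04g10080D, which was at 1401 and 894 FPKM in WF1 and WF3. BnaCnng01630D (168 and 163 FPKM in WF1 and WF3), BnaA03g48430D (159 and 166 FPKM), BnaA02g04260D (155 and 142 FPKM) and BnaC02g28980D (92.9 and 124 FPKM) followed. A value of 0 here says only that the table lists 0. When the rule was applied to all 11 libraries, 14 members were left, 5 of them from the run.

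**Figure D5:**
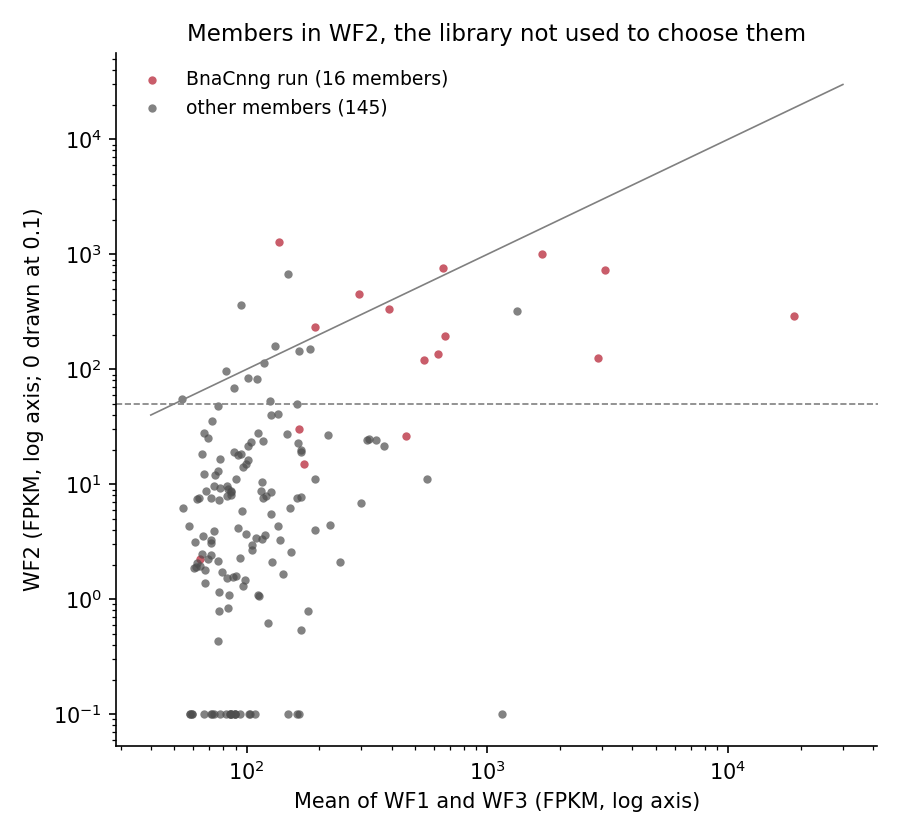
Level of each member in WF2 against its mean in WF1 and WF3 (FPKM, both axes log, 0 drawn at 0.1 FPKM), with the run in red, the other members in grey, equality as a solid line and 50 FPKM as a dashed line. Of the run members 12 of 16 lie at or above the dashed line, against 13 of the 145 others, and 25 of the others lie on the bottom row at 0. The run had the higher median level over the 10 libraries, so the counts at the dashed line do not compare like with like.

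Members were spread over the whole genome. Every numbered chromosome held between 3 and 16, with the 16 on C03. The numbered A chromosomes held 63 members (39.1%) and the C chromosomes 67 (41.6%), against 42.9% and 45.9% of the 46004 transcripts whose mean reached 1 FPKM in any group. Unplaced C sequence held 27 members (16.8%, against 6.48% of detected transcripts), of which 16 are the run and 11 lie elsewhere. Unplaced A sequence held 1 member (0.621%, against 3.73%), 2 were unplaced in either subgenome, and 1 (CUFF.9779.1) carried an assembly name.

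The 161 are part of a continuum at both edges of the rule. Just inside the limit were BnaA02g06680D (quotient 3.00), BnaA08g24270D (2.99) and BnaC03g31580D (2.97), and just outside were BnaC03g52160D (3.01), BnaA08g30590D (3.02) and BnaCnng23840D (3.04). Just inside the floor were BnaCnng12360D (lowest library 50.1 FPKM), BnaC07g28290D (50.1 FPKM) and BnaC03g36410D (50.3 FPKM), and just outside were BnaC08g00580D (49.4 FPKM), BnaC06g26930D (49.1 FPKM) and BnaC07g12580D (48.9 FPKM). Another 351 transcripts were as even with a lowest library between 25 and 50 FPKM.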

How the data were processed

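The deposited FPKM values were computed by the authors, who aligned single-end reads of amplified RNA to the Genoscope *B. napus* genome with TopHat2 2.0.13 and estimated levels with Cufflinks 2.2.1. The absolute depth of each library is not in the table. The 11 columns were matched to libraries by name, 0 columns were left unmatched, and WF2 was kept out of all groups. Members followed from the rule on FPKM as deposited. Tissues were compared with limma 3.58.1 (R 4.3.3, variance trend) on log2(FPKM + 1), keeping the 45300 transcripts whose mean reached 1 FPKM in any tissue, with Benjamini-Hochberg adjustment at 0.05; the script was tested on simulated data. Tables were made in Python 3.11.15.

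The members, gene lists and keyword groups were chosen with earlier results of these data known, and the keyword patterns were tightened after they had matched inside other words. Named transcripts are the described members, the 10 highest means, the 5 smallest quotients, the 3 nearest to each edge of the rule, the 5 highest and 5 lowest in WF2 relative to WF1 and WF3 (ties by their mean in WF1 and WF3), the called members, and transcripts added after their values were seen (run members, 3 members kept in WF2, BnaA01g03330D, and housekeeping transcripts that missed the rule). RefSeq records matched 4 members and 3250 transcripts, and gave no functional names; their assembly differs and no coordinates were used. Alternatives covered the floor, the limit, scaling, pseudocount, filter, variance trend, libraries in the fit, replicate block and leaving out each library.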

Additional observations from a re-analysis of the deposited data

Results flagged for a closer look

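In WF2, the library that entered no comparison between tissues, 3 members stood over 3 times above both other whole funiculus libraries although 150 of the 161 members were lower there than in both. BnaCnng12500D, in the run, was at 1272 FPKM in WF2 against 126 and 147 FPKM in WF1 and WF3, and between 106 and 221 FPKM in the tissues. BnaUnng01800D was at 681 FPKM in WF2 against 115 and 183 FPKM. BnaCnng48520D was at 359 FPKM in WF2 against 105 and 84.3 FPKM, while its neighbour by gene number, BnaCnng48510D, was at 114 FPKM against 117 and 119 FPKM. Each rests on 1 library and the differences were not tested.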

How the results depend on the processing

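The number of even abundant transcripts was 512 with a floor of 25 FPKM, 36 with a floor of 100 FPKM, 63 with a limit of 2 times the lowest, 14 over 11 libraries with WF2, and 212 with a limit of 4 times. Median-of-ratios scaling gave 169, of which 144 were among the 161, adding 1 FPKM before the ratio gave 163, and leaving out a library gave 163 to 181. The count of 5 called in epidermis minus vasculature was 3 with no filter, 8 with a mean of at least 5 FPKM, 9 with 10 libraries in the fit and 0 to 8 leaving out a library, and 5 or 6 under another pseudocount, scaling or no variance trend. Of the 75 values of the 5 called transcripts under alternatives, 50 kept their direction and call, 25 kept the direction only and 0 turned. BnaA02g06680D lost its call without epidermis 2 (adjusted p = 0.0511) and under no other alternative. In cortex minus vasculature 1 member was called with 10 libraries in the fit, and 0 members were called in that contrast, in epidermis minus cortex and in tissue mean minus whole funiculus under every other alternative. With the replicate block 2 members were called in epidermis minus vasculature, BnaA02g06680D (adjusted p = 0.0365) and BnaA08g24270D (0.0488). The labels state no shared source for equal numbers. The 12 same-numbered pairs had correlations of −0.103 to 0.203, against −0.268 to 0.268 in the other pairs. In groups of 2 libraries the values mirror each other, as for epidermis 1 with cortex 1 (0.203) and with cortex 2 (−0.203). These correlations therefore cannot decide whether equal numbers share a source. The median level in WF2 relative to WF1 and WF3 was 0.202 after scaling, and 23.0% of members reached 25 FPKM in WF2. The share of promoters holding a motif was not run because no promoter sequences were used here. WF2 had the fewest fragments, at 0.186 of the number in WF3, and the part of depth in its low values was not tested. Zeros in WF2 do not show absence.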
